A study of Mus musculus with 6 samples.

Results

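Calcium handling and excitation-contraction coupling were followed through 44 genes that encode the channels, pumps, stores, junction proteins and calcium-sensing enzymes of the heart muscle cell. The members are a named list, found by matching each symbol to 1 row of the deposited count table through a GRCm38 annotation, and all 44 of 44 were found among the 47729 rows. The tissue was left ventricular myocardium of mice taken on day 9 of pressure overload by transverse aortic constriction (TAC), in which a narrowed aorta raises the pressure the ventricle pumps against. The 3 Treg libraries were, by the title of the series, from hearts of mice given regulatory T cells that had been induced in culture and deprived of CD28, and 3 further libraries were controls. All 6 hearts had been operated on. The labels state neither what the control mice received nor the strain, age or sex of the animals, and they do not say outright that each library is a separate animal, so a p-value speaks only of the spread among these 6 libraries. No unoperated heart was analysed here.

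Each heartbeat starts when the action potential opens L-type calcium channels in the transverse tubules, and the calcium that enters makes ryanodine receptors release a larger amount from the sarcoplasmic reticulum (SR), the muscle cell's calcium store. Relaxation follows when the SR pump SERCA returns calcium to the store, under the brake of phospholamban, and when the sodium-calcium exchanger moves the rest out of the cell. Calmodulin, the kinase CaMKII and the phosphatase calcineurin read the calcium signal and link it to growth of the muscle cell under load.

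Library totals lay between 28937253 and 29979080 estimated counts. The labelled tissue fitted its markers: the 12 cardiomyocyte markers summed to 54148 to 71558 CPM (the count relative to the scaled library size) in the Treg libraries and to 44469 to 64462 CPM in the control libraries. The ranges overlapped, and 9 of the 12 had a log2 fold change above 0. Taken singly, 4 of the 12 were higher in every Treg library than in any control library, and 2 were lower. Over all genes tested these shares were 13.7% and 11.7%. In bulk tissue, fewer muscle cells and less RNA per muscle cell cannot be told apart. A pair of libraries stood apart. Control replicate 3 had a median correlation of 0.944 with the other libraries, against 0.975 to 0.983 for the remaining ones, and it held the lowest value of 21 of the 43 tested members. Treg replicate 3 held transcripts of the atrial myosin light chain genes, with Myl7 at 1202 counts against 1 to 6 elsewhere and Myl4 at 2183 against 72 to 133. Other genes of the atrial list did not set this library apart from control replicate 1. Nppa was highest in control replicate 1, at 1432 CPM against 899 CPM in Treg replicate 3, and Dkk3 was at 43.7 CPM in both. Within the Treg group, replicate 3 was the highest for both genes. Treg replicates 1 and 2 had Nppa at 579 and 638 CPM and Dkk3 at 26.7 and 25.7 CPM. The sum of the 5 atrial markers was 1480 CPM in control replicate 1 and 1049 CPM in Treg replicate 3.

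Per length, the members were led by the SR pump, its brake and S100a1. Levels between genes are given as CPM per kb of annotated exon, mean ± SD over the 3 libraries of a group, as throughout. Pln, phospholamban, stood at 1362 ± 219 CPM per kb in Treg and 926 ± 93.2 in control. Atp2a2, which encodes the cardiac SERCA, stood at 1047 ± 89.9 in Treg and 649.9 ± 125 in control, and S100a1, an EF-hand protein that binds both SERCA and the ryanodine receptor, at 605 ± 89.5 and 526 ± 106. In Treg, the next were Casq2 (cardiac calsequestrin, the main store buffer), Srl (sarcalumenin, a calcium-binding protein of the SR lumen), Hrc and Tmem38a (the SR counter-ion channel TRIC-A); in control, Hrc ranked 9, below Calm2 and Jph2. The pore of the L-type channel, Cacna1c, stood at 18.8 ± 2.18 CPM per kb in Treg and 14.1 ± 7.50 in control. The lowest of the tested members was the T-type pore gene Cacna1h, at 0.109 ± 0.0371 in Treg and 0.117 ± 0.0416 in control. One form held nearly all transcripts of the SERCA and ryanodine receptor families and most of the calsequestrin family, whereas no gene exceeded 48.3% of CaMKII or 45.1% of IP3 receptor transcripts per length. Atp2a2 made up 99.6% to 99.7% of SERCA transcripts per length in both groups, Ryr2 99.5% to 99.7% of ryanodine receptor transcripts in Treg and 99.0% to 99.6% in control, and Casq2 91.0% to 96.0% of calsequestrin transcripts in Treg and 89.1% to 96.3% in control.

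**Figure D1:**
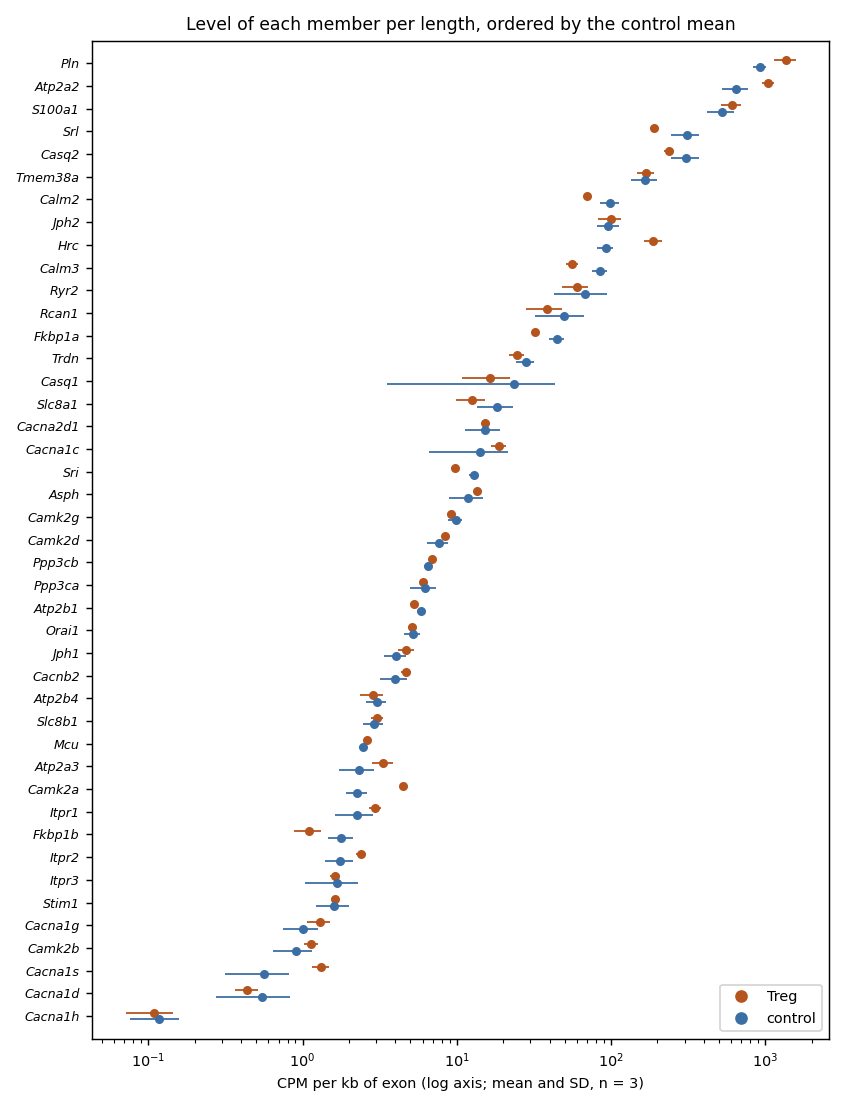
Level of 43 members as CPM per kb of exon on a log axis, with Treg points above control points for each gene (mean and SD, n = 3). Pln, Atp2a2 and S100a1 lead in both groups, and the control bar of Casq1 is the widest because control replicate 2 stood at 90.3 CPM against 19.5 and 27.2 CPM in the other control libraries.

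No member passed the threshold in the comparison of Treg with control, and the signs of the differences were split almost evenly between directions. By edgeR's quasi-likelihood test, adjusted over 17365 genes, 0 of 43 tested members had an adjusted p under 0.05, as did 0 of all genes, a percent called of 0.0. Sln did not pass the filter on low counts. Of the 43 members, 22 had a log2 fold change (Treg over control) above 0 and 21 below, with a median of 0.01 against −0.02 over all genes tested. Every fold change given below is on this log2 scale. At an unadjusted p under 0.05 there were 13 members, 30.2% of those tested, where 16.5% of all genes passed the same rule; 7 were higher in Treg (8.23% of all genes) and 6 lower (8.31%). The groups did not overlap for 13 members, also 30.2%, where 25.4% of all genes did not overlap; 6 were higher in Treg (13.7% of all genes) and 7 lower (11.7%). Among the 2234 genes with a mean CPM at or above that of the median member, a background chosen after the values were seen, these shares were 21.0% and 29.3%. The share without overlap was close to that of these 2234 genes, although members below the median lie under their range of level. Without control replicate 1 the count without overlap was 23, or 53.5% of the members against 43.2% of all genes and 47.7% of the 2234 genes. Without control replicate 3 it was 21, or 48.8% against 37.0% and 42.0%.

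The number of members called depended on the tool and on control replicate 3. At an adjusted p under 0.1, edgeR gave 2 members, Camk2a and Hrc, where 0.472% of all genes passed. DESeq2 called 8 members at an adjusted p under 0.05, where it called 3.79% of 17010 genes. These were Hrc, Camk2a, Atp2a2 and Cacna1s, higher in Treg, and Srl, Calm3, Calm2 and Fkbp1a, lower. limma-voom called 0 members and gave 13 an unadjusted p under 0.05, where 16.2% of all genes had one. When control replicate 3 was left out, 1 member passed by edgeR, Camk2a, where 1.3% of all genes were called.

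**Figure D2:**
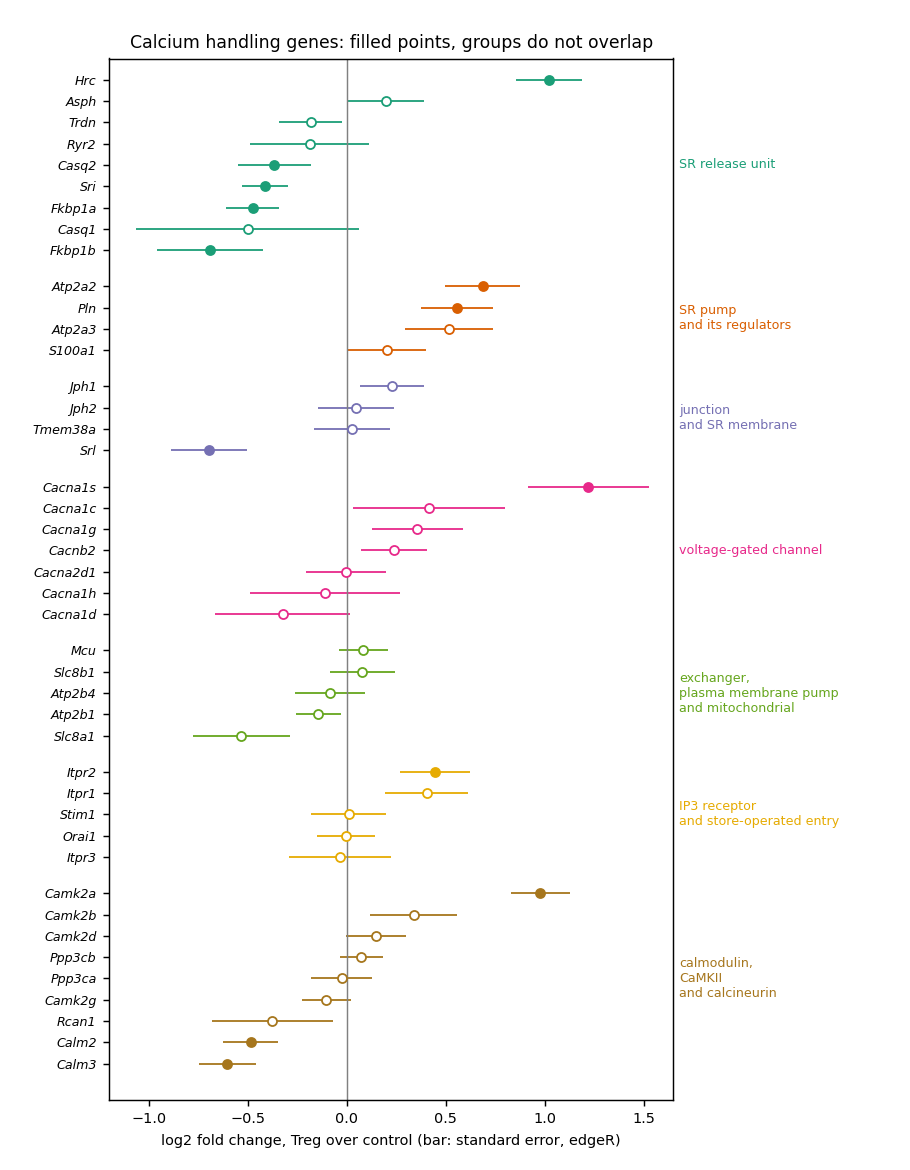
Log2 fold change of 43 members, Treg over control, with the standard error from edgeR, ordered within each role. Filled points mark the 13 members whose groups do not overlap, 6 higher in Treg (such as Hrc at 1.02) and 7 lower (such as Srl at −0.70).

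Of the 5 genes of the SR pump and its regulators, 4 were tested and none passed the adjusted threshold. The 4 lay above 0 on the log2 fold scale (median 0.54). An unadjusted p under 0.05 was found for 3, where 8.23% of all genes were higher by the same rule. Of these, Atp2a3 was just under it (edgeR unadjusted p = 0.0497). Atp2a2 (chromosome 5, 122453513 to 122502225) stood at 6004, 6994 and 6098 CPM in Treg, against 4826, 3431 and 3598 CPM in control. Every Treg library lay above every control library, the nearest being control replicate 1. The log2 fold change was 0.69 ± 0.19 (SE, as for every fold change), with edgeR adjusted p = 0.198. Pln (chromosome 10, 53337667 to 53345987) stood at 3386, 4455 and 3431 CPM in Treg, against 2843, 2351 and 2467 CPM in control, again without overlap (0.56 ± 0.18, edgeR adjusted p = 0.234). Treg replicate 2 was the highest library for both the pump and its brake. Some cardiomyocyte markers had log2 fold changes of like size, such as Tcap (0.65 ± 0.21), Myl2 (0.59 ± 0.22) and Mb (0.52 ± 0.18). Of the 12 markers, 3 lay below 0, the lowest being Tnnc1 (−0.45 ± 0.19). The part of muscle cell content in the values of Atp2a2 and Pln was not tested. Exons of Cep85l and Gm47644 on the other strand cover 64.7% of the exon bases of Pln, and no source used here says whether counting took account of strand. Cep85l held 215, 225 and 234 counts in Treg and 206, 118 and 194 in control, far below the counts of Pln. Atp2a3, a SERCA form of endothelial and blood cells, stood at 19.9, 18.5 and 14.5 CPM in Treg and 15.6, 12.0 and 9.26 CPM in control, so that Treg replicate 3 lay below control replicate 1 (0.52 ± 0.22, edgeR adjusted p = 0.301). Endothelial markers, 7 genes, summed to 914 to 1150 CPM in Treg and 839.7 to 1703 CPM in control. The highest sum was in control replicate 3, which had the lowest Atp2a3, and 1005 CPM of it was Fabp4. The part of endothelial cells in the Atp2a3 value was not tested. S100a1 overlapped between the groups (0.20 ± 0.20, edgeR adjusted p = 0.61, 0.06 without control replicate 3 and 0.36 without control replicate 1).

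Sln, sarcolipin, the small SERCA inhibitor of atrial and skeletal muscle, was present in 1 library. It held 3, 3 and 398 counts in Treg and 1, 3 and 0 in control; a count of 0 allows up to 3 counts, or 0.101 CPM, by counting error. Its high library, Treg replicate 3, was the one with Myl7 and Myl4, and Bmp10, another atrial gene, had 0, 0 and 3 counts in Treg and 1, 0 and 1 in control. Without that library, Sln was at or under 3 counts in every heart, and Atp2a2 and Pln had log2 fold changes of 0.72 and 0.62.

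Strit1, which encodes DWORF, a micropeptide that raises SERCA activity by displacing its inhibitors, is no member and is described here whatever its values (it is Gm34302 in the annotation). It held 534, 650 and 500 counts in Treg and 223, 211 and 240 in control. All Treg libraries were above all control libraries, and the log2 fold change was 1.31 ± 0.19 (edgeR adjusted p = 0.0914). The skeletal muscle micropeptide gene Mrln stood at 8, 2 and 6 counts in Treg and 4, 2 and 4 in control.

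In the SR release unit, 7 of 9 members had a fold change below 0 and 2, Hrc and Asph, above 0, with a median of −0.37. None passed the adjusted threshold. Of the 7 below 0, 3 (Fkbp1a, Fkbp1b and Sri) had an unadjusted p under 0.05, where 8.31% of all genes were lower by the same rule. Hrc encodes the histidine-rich calcium-binding protein, which sits in the SR lumen and binds both triadin and SERCA. It stood at 509, 528 and 408 CPM in Treg and 267, 235 and 209.6 CPM in control (chromosome 7, 45335290 to 45338974). Every Treg library lay well above every control library. The log2 fold change of 1.02 ± 0.17 had edgeR adjusted p = 0.0989. The immunophilins that bind ryanodine receptors were lower. Fkbp1a (chromosome 2, 151542483 to 151561692) stood at 123, 119 and 129.6 CPM in Treg and 150.1, 178 and 188 CPM in control (−0.47 ± 0.13, edgeR adjusted p = 0.204). Fkbp1b, the form with high affinity for the cardiac receptor, was near the lower end of detection, at 29, 29 and 44 counts in Treg and 41, 63 and 58 in control (−0.69 ± 0.27, edgeR adjusted p = 0.28). Sri, sorcin, a calcium-dependent modulator of the ryanodine receptor, stood at 49.1, 43.8 and 48.5 CPM in Treg and 57.8, 65.8 and 64.4 CPM in control (−0.41 ± 0.12, edgeR adjusted p = 0.202). Once scaled, the groups did not overlap for Hrc, Fkbp1a, Fkbp1b or Sri. These 4 were among the 29 of 43 tested members that kept their sign in all 18 alternative settings. Where groups do not overlap, leaving out a library can hardly reverse a sign, so this adds no separate support.

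The release channel itself differed less between groups than within them. Ryr2, the cardiac ryanodine receptor, stood at 1501, 2107 and 1573 CPM in Treg and 2602, 2125 and 1171 CPM in control (−0.19 ± 0.30, edgeR adjusted p = 0.767). The control libraries spanned the whole range, and the fold change was 0.07 without control replicate 1 and −0.45 without control replicate 3. Casq2 stood at 616, 709.6 and 637 CPM in Treg and 777, 1038 and 716 CPM in control, just without overlap (−0.37 ± 0.18, edgeR adjusted p = 0.358, and −0.19 without control replicate 2). Trdn, triadin, which anchors calsequestrin to the receptor, had −0.18 ± 0.16, with −0.28 without control replicate 3 and −0.10 without control replicate 1. Asph, whose locus also encodes junctin, had 0.20 ± 0.19, with 0.02 without control replicate 3 and 0.38 without control replicate 1. Casq1, the skeletal calsequestrin, stood at 43.2, 21.0 and 32.6 CPM in Treg and 27.2, 90.3 and 19.5 CPM in control, and its fold change was −0.50 ± 0.56, or 0.46 without control replicate 2. The 9 skeletal muscle markers summed to 3.01 to 6.27 CPM in Treg, against 31.5 CPM in control replicate 2 and 4.21 and 15.97 CPM in the other control libraries. Most of that sum was Tnnt3 (860 counts in control replicate 2), while the fast myosin genes Myh4, Myh1 and Myh2 were at 0 to 3 counts in all 6 libraries, and the part of skeletal transcripts in the Casq1 value was not tested.

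Of the junction and SR membrane genes, Srl stood apart from its neighbours. Sarcalumenin supports SERCA in the longitudinal SR. Srl (chromosome 16, 4480216 to 4541816) stood at 988, 1087 and 977 CPM in Treg and 1263, 1807 and 1881 CPM in control (−0.70 ± 0.19, edgeR adjusted p = 0.198). The Treg libraries lay close together, and control replicate 1 lay nearest to them. The genes that hold the dyad together showed smaller values. Jph2, junctophilin 2, which ties the transverse tubule to the SR, stood at 423 ± 72.1 CPM in Treg and 410.04 ± 67.1 CPM in control (0.05 ± 0.19, edgeR adjusted p = 0.92). Tmem38a had 0.03 ± 0.19 and the junctophilin gene Jph1 0.23 ± 0.16, or 0.13 without Treg replicate 2. For Jph2 and Tmem38a the standard error exceeded the fold change.

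**Figure D3:**
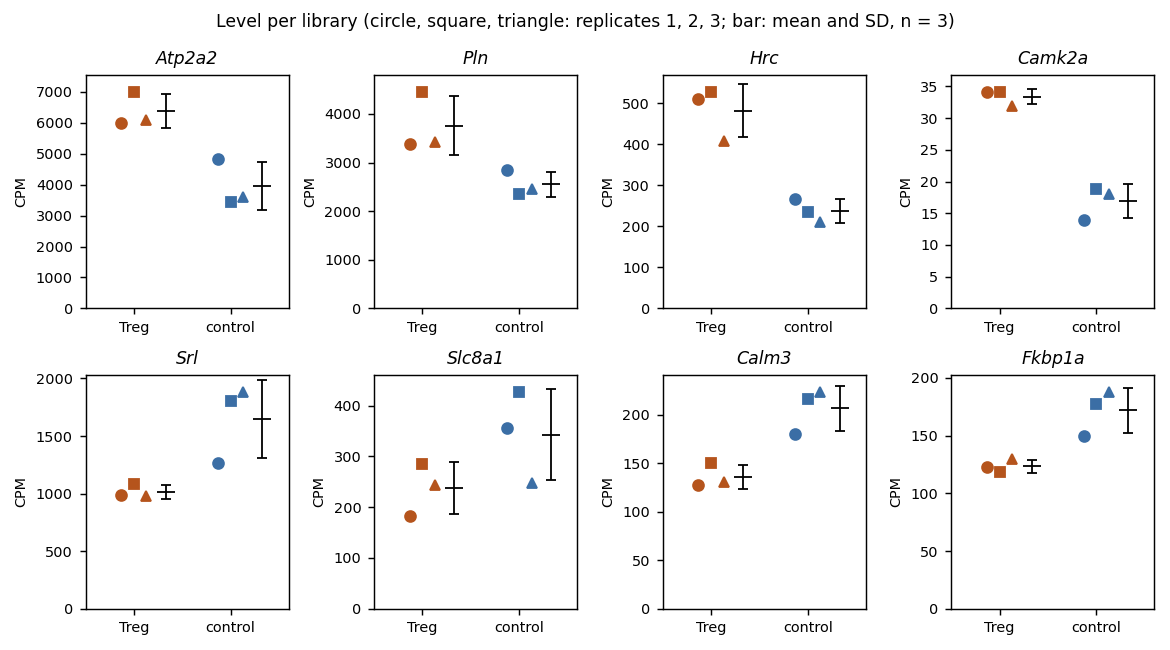
CPM per library for 8 members on axes from 0, with Treg to the left of control and the mean and SD beside each group. Atp2a2, Pln, Hrc and Camk2a lie higher in every Treg library, Srl, Calm3 and Fkbp1a lie lower, and Slc8a1 overlaps.

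The voltage-gated channels were dominated by the cardiac L-type pore, which varied most in the control libraries. Cacna1c stood at 398, 445 and 353 CPM in Treg and 454, 306 and 136 CPM in control. Control replicate 3 was lowest, and the log2 fold change of 0.42 ± 0.38 (edgeR adjusted p = 0.59) was 0.07 without it and 0.85 without control replicate 1. Cacna1s, the L-type pore of skeletal muscle, was present at a low level with no overlap, at 244, 276 and 252 counts in Treg and 159, 91 and 75 in control (1.22 ± 0.31, edgeR adjusted p = 0.175). Its share of the 5 L- and T-type pore genes per length was 5.58% to 6.31% in Treg and 2.78% to 4.50% in control. Exons of Gm37759 on the other strand cover 19.98% of its exon bases and held 30, 35 and 34 counts in Treg and 32, 18 and 11 in control.

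The other channel members overlapped. The accessory subunit gene Cacna2d1 stood at 189 ± 8.04 CPM in Treg and 189.8 ± 48.8 CPM in control (0.00 ± 0.20), and Cacnb2, the β subunit that brings the pore to the membrane, had 0.24 ± 0.17, or 0.10 without control replicate 3. The pacemaker and T-type pores were low: Cacna1g had 0.36 ± 0.23, or 0.16 without control replicate 3, and Cacna1h −0.11 ± 0.38. Cacna1d, the L-type pore of atrial and nodal cells, stood at 5.67, 4.58 and 6.37 CPM in Treg and 4.56, 5.33 and 10.9 CPM in control, and its fold change of −0.32 ± 0.34 was 0.16 without control replicate 3.

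Calcium removal across the surface membrane was carried at the transcript level mainly by Slc8a1, the cardiac sodium-calcium exchanger NCX1. It stood at 183, 285 and 244 CPM in Treg and 355, 427 and 248 CPM in control (chromosome 17, 81373105 to 81738377). Treg replicate 2 lay above control replicate 3, so the groups overlapped, and the log2 fold change was −0.53 ± 0.25 (edgeR adjusted p = 0.329), or −0.35 without control replicate 2. The surface pumps Atp2b1 and Atp2b4 had −0.14 ± 0.11 and −0.09 ± 0.17. In mitochondria, Mcu, the uniporter pore, had 0.08 ± 0.12 and Slc8b1, the mitochondrial sodium-calcium exchanger, 0.08 ± 0.17. None of the 5 members of this role had an unadjusted p under 0.05, where 16.5% of all genes did.

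Ratios between members within a library do not depend on how libraries are scaled, and 6 were computed. The exchanger relative to the pump, Slc8a1 over Atp2a2 in counts, was 0.0304, 0.0407 and 0.0401 in Treg and 0.0736, 0.124 and 0.0688 in control. The groups did not overlap, and the log2 ratio was −4.77 ± 0.24 in Treg and −3.54 ± 0.47 in control, a difference of −1.22. The exact two-sided permutation test gave p = 0.1, the smallest that 3 against 3 libraries allow, and 0.2 adjusted over the 6 ratios. The brake relative to the pump, Pln over Atp2a2, was 0.564, 0.637 and 0.563 in Treg and 0.589, 0.685 and 0.686 in control, a log2 difference of −0.15 (exact permutation p = 0.2). Here Treg replicate 2 lay above control replicate 1, so the groups overlapped. Casq2 over Ryr2 differed by −0.22 on the log2 scale (exact permutation p = 0.5), and by 0.00 without control replicate 3. Fkbp1b over Fkbp1a differed by −0.22 (exact permutation p = 0.3), or −0.11 without Treg replicate 1. Camk2g over Camk2d, the main cardiac CaMKII genes, differed by −0.26 and Itpr2 over Ryr2 by 0.59, each without overlap between groups (exact permutation p = 0.1, and 0.2 adjusted over the 6 ratios). For Itpr2 over Ryr2 the nearest libraries were Treg replicate 2 at −5.81 and control replicate 3 at −5.88 on the log2 scale.

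**Figure D4:**
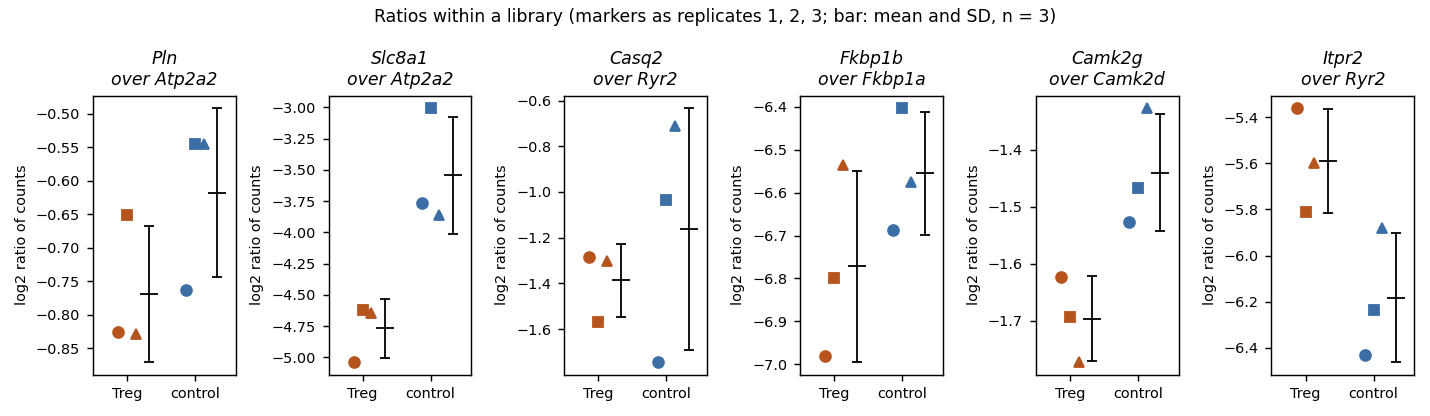
Log2 ratio of counts between paired members in each library, Treg left of control, with mean and SD (n = 3). The groups are separate for Slc8a1 over Atp2a2 (−4.77 and −3.54 on average), Camk2g over Camk2d and Itpr2 over Ryr2, and they overlap for the other ratios.

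The IP3 receptors release calcium from the store and nuclear envelope after hormone signals, and Itpr2 is the main form of the heart muscle cell. Itpr2 stood at 36.5, 37.5 and 32.5 CPM in Treg and 30.1, 28.2 and 19.9 CPM in control, without overlap (0.45 ± 0.17, edgeR adjusted p = 0.283, and 0.28 without control replicate 3). Itpr1 had 0.40 ± 0.21, or 0.20 without control replicate 3. In this bulk tissue Itpr1 held a larger share of IP3 receptor transcripts per length than Itpr2 in every library. Itpr1 took 40.2% to 44.6% in Treg and 29.6% to 44.6% in control, and Itpr2 31.9% to 37.1% and 25.3% to 34.8%. Itpr3 had −0.04 ± 0.26 and took 21.6% to 25.6% of IP3 receptor transcripts per length in Treg, against 45.1% in control replicate 3 and 21.7% to 23.0% in the other control libraries. Its value was 0.31 without control replicate 3. Neutrophil markers summed to 8.23 to 18.4 CPM in Treg. In control they summed to 36.8 CPM in replicate 3 and 6.81 to 9.33 CPM in the others. Among them, Csf3r was 5.72 CPM in control replicate 3, below 7.09 and 6.92 CPM in Treg replicates 1 and 2. Control replicate 3 was also highest for the platelet (45.7 against 12.4 to 14.5 CPM), endothelial (1703 against 839.7 to 1150 CPM) and lymphocyte sums (16.1 against 2.70 to 5.61 CPM). The macrophage and fibroblast sums peaked in control replicate 2. The part of these cells in the Itpr3 value was not tested. For store-operated entry, Stim1, the calcium sensor of the SR, and Orai1, the membrane pore, had 0.01 ± 0.19 and 0.00 ± 0.15.

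Among the calcium sensors, the calmodulin members Calm3 and Calm2, which encode the same protein, were lower in every Treg library than in any control library. Calm3 (chromosome 7, 16915379 to 16924114) stood at 127, 150.3 and 130.1 CPM in Treg and 180.4, 216 and 223 CPM in control (−0.60 ± 0.14, edgeR adjusted p = 0.164). Calm2 (chromosome 17, 87433412 to 87446935) stood at 101, 104 and 105 CPM in Treg and 123, 148 and 162 CPM in control (−0.49 ± 0.14, edgeR adjusted p = 0.209). For both genes control replicate 1 lay nearest to the Treg libraries.

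The CaMKII genes differed among themselves. Camk2a, the form best known from brain, stood at 34.1, 34.0 and 32.0 CPM in Treg and 13.9, 18.9 and 18.0 CPM in control (chromosome 18, 60925618 to 60988152). The Treg libraries lay close together and well above the control libraries. Camk2a had the smallest p of any member (log2 fold change 0.98 ± 0.15, edgeR adjusted p = 0.0973). Without control replicate 3 the adjusted p was 0.0294 by edgeR. Over all alternatives the adjusted p ranged from 1.31e-05 by DESeq2 to 0.496 by edgeR, with a log2 fold change of 0.86 to 1.07. Camk2d, the main form of the heart, had 0.15 ± 0.15, or 0.03 without control replicate 3, Camk2g −0.10 ± 0.12 and Camk2b 0.34 ± 0.22, or 0.60 without control replicate 1. As shares of CaMKII transcripts per length, Camk2a took 18.3% to 20.4% in Treg and 8.91% to 13.2% in control. Camk2g took 38.7% to 40.6% in Treg and 46.9% to 48.3% in control. Camk2d took 35.6% to 37.6% and 34.5% to 38.5%, below Camk2g in every library. Without division by length Camk2d was the higher, at 190 CPM in Treg and 172 CPM in control against 58.6 and 62.9 CPM for Camk2g. Markers of neurons and Schwann cells, 6 genes, summed to 11.2 to 13.5 CPM in Treg and 9.99 to 11.2 CPM in control, with Snap25 at 0 in 4 of 6 libraries, and their part in the Camk2a value was not tested.

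Calcineurin, the phosphatase that activates NFAT, showed smaller values. The catalytic subunit genes Ppp3ca and Ppp3cb had −0.02 ± 0.15 and 0.07 ± 0.11. Rcan1, an inhibitor of calcineurin that is itself a target of NFAT, stood at 85.4, 122 and 147 CPM in Treg and 164, 202 and 94.5 CPM in control. The groups overlapped and the fold change of −0.38 ± 0.31 lay between −0.63 without control replicate 3 and −0.13 without control replicate 2.

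**Figure D5:**
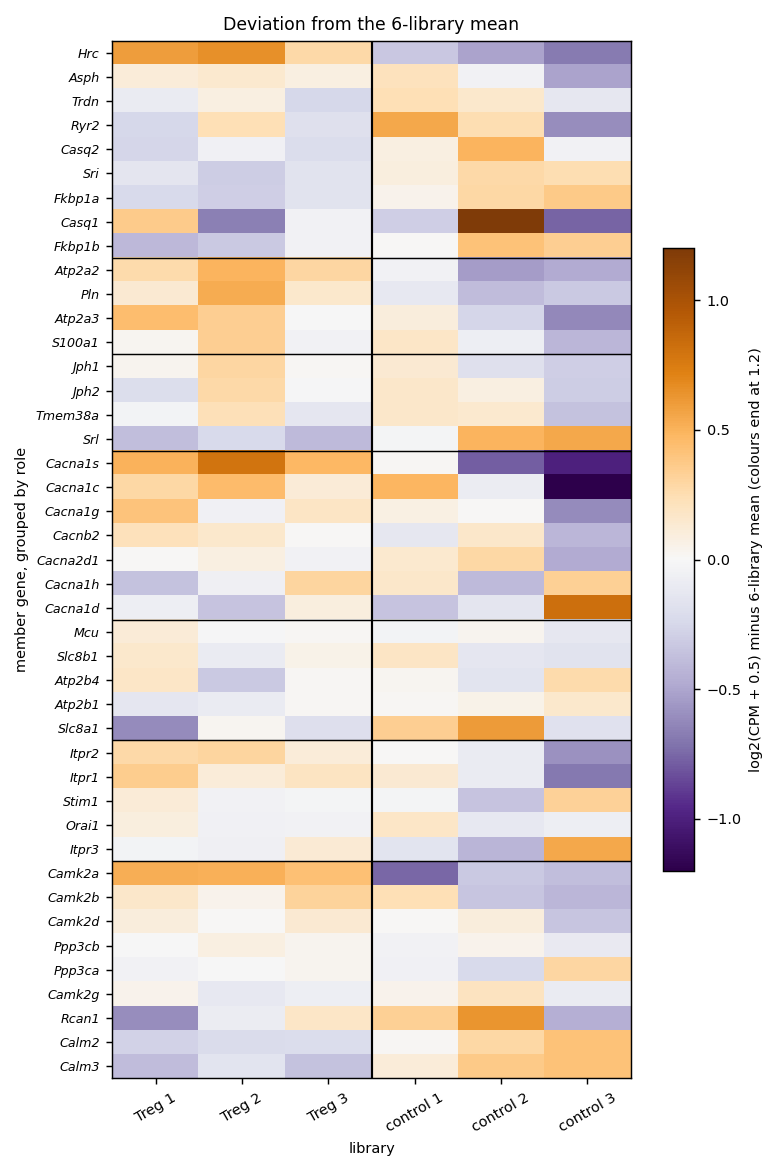
Deviation of log2(CPM + 0.5) from the 6-library mean for 43 members (rows, by role) in the Treg libraries, left, and the control libraries, right. Colours end at 1.2; control replicate 3 has the largest median absolute deviation of the 6 libraries, 0.384, being the lowest for 21 members and the highest for 11, while Hrc, Atp2a2, Pln and Camk2a are above their mean in all 3 Treg libraries.

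Promoters are shown for 4 members whose groups did not overlap, 2 higher in Treg (Hrc and Pln) and 2 lower (Calm3 and Fkbp1a). They come from RefSeq's GRCm38.p6 table, which held 37 promoters for 30 of the 44 members. Each runs 5′ to 3′ on the gene's strand from 250 bases before to 50 bases after the RefSeq start: Hrc at chr7:45335019-45335318 (plus strand), Pln at chr10:53337436-53337735 (plus), Calm3 at chr7:16923983-16924282 (minus) and Fkbp1a at chr2:151542233-151542532 (plus). Capitals mark matches, on either strand, to 7 motifs. One is the TATA box TATAAA, a general core promoter element. The others are motifs of muscle and calcium-responsive factors: the E-box CANNTG, the M-CAT element CATTCC, the NFAT core GGAAAA, the GATA core AGATAA, the CArG box and the MEF2 site.
Hrc: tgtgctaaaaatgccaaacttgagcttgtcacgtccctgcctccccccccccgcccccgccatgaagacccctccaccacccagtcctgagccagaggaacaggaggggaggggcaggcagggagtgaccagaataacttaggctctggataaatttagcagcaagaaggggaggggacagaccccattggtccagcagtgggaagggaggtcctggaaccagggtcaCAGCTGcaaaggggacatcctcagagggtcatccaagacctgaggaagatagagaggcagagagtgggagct
Pln: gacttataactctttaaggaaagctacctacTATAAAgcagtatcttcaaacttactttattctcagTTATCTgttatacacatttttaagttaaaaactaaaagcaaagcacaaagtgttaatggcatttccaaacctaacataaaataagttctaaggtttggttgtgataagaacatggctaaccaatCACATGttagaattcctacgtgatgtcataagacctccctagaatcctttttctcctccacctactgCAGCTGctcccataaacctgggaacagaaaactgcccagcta
Calm3: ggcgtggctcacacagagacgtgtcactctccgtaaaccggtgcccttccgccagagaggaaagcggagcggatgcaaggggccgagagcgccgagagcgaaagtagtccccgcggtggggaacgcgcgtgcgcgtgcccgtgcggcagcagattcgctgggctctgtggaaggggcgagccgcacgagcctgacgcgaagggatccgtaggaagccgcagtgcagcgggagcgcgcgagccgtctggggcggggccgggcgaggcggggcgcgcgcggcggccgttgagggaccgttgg
Fkbp1a: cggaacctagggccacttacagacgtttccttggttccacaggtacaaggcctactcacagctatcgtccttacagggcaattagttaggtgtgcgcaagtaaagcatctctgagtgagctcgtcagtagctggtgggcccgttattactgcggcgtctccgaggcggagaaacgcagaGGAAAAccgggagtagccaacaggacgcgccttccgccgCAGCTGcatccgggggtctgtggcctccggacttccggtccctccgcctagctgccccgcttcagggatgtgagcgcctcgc
The Hrc promoter held 1 E-box, its first base at −22 from the start. The Pln promoter held 2 E-boxes, a GATA core and a TATA box, the last well upstream. Fkbp1a held 1 E-box and 1 NFAT core, and Calm3 held no match to these letters in this window. E-boxes occur in 72.3% of all 32851 promoters of this length, NFAT cores in 23.4%, M-CAT elements in 14.7%, TATA boxes in 13.6%, GATA cores in 11.2%, MEF2 sites in 3.19% and CArG boxes in 1.63%. Among the 37 member promoters the counts were 27, 5, 5, 2, 3, 1 and 0 in the same order. The GC content was 36.0% for Pln, 58.7% for Hrc, 60.3% for Fkbp1a and 72.0% for Calm3.

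Other genes of the pathway were taken from lists of 96 symbols, of which 95 were found and 83 tested. By edgeR 0 passed the threshold, 39 had a fold change above 0 and 44 below, and the median was −0.03. At an unadjusted p under 0.05 there were 8 higher and 10 lower, where 8.23% of all genes were higher and 8.31% lower by the same rule. Of the 2 genes with the smallest p of each list, those reported are named here. In the SR and junction list these were Strit1 and Ehd4, an endocytic ATPase of the transverse tubule region, which stood at 485, 573 and 523 CPM in Treg and 1010.5, 1032 and 1128 CPM in control (−1.004 ± 0.15, edgeR adjusted p = 0.0933). Every Treg library lay well below every control library. Cav3, the muscle caveolin, named after its values were seen, stood at 49.8, 58.1 and 52.9 CPM in Treg and 68.6, 119 and 166 CPM in control (−1.14 ± 0.29).

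Among channel regulators, Rrad, a small G protein that restrains the L-type channel until it is phosphorylated, stood at 85.8, 123 and 129.8 CPM in Treg and 184, 186 and 323 CPM in control (−1.03 ± 0.27, edgeR adjusted p = 0.184). Gem, of the same family, went the other way at a low level, 5.57 ± 0.369 CPM in Treg and 4.03 ± 0.187 in control (0.47 ± 0.16). The sodium pump sets the gradient that drives the exchanger. Its β subunit Atp1b1 stood at 209, 291 and 273 CPM in Treg and 397, 434 and 459.9 CPM in control (−0.74 ± 0.17), with edgeR adjusted p = 0.156.

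In the remaining lists, Hspb6, a small heat shock protein that inhibits the phosphatase acting on phospholamban, stood at 371, 361 and 380.4 CPM in Treg and 228, 259.96 and 237 CPM in control (0.62 ± 0.13, edgeR adjusted p = 0.136). Ppp2r3a, a regulatory subunit of phosphatase 2A, had 0.32 ± 0.14. Orai2, a store-operated pore, stood at 3.61 ± 0.348 CPM in Treg and 6.22 ± 0.45 in control (−0.78 ± 0.17). Rcan3, a relative of Rcan1, had −0.36 ± 0.12. Of the uniporter list, 0 of 7 genes had an unadjusted p under 0.05, where 16.5% of all genes did. Mcub, the inhibitory pore subunit, had −0.43 ± 0.35.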

How the data were processed

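RNA of frozen left ventricle was made into stranded poly(A) libraries and sequenced as paired 101 bp reads, per the labels' protocols. The submitters' processing notes name GRCm38, Trimmomatic 0.39, HISAT2 2.1.0, featureCounts 2.0.6 and Cuffdiff 2.2.1, without their roles. The authors deposited estimated counts per gene; 46.5% to 50.03% of the values above 0 are fractional, and the sources used here give neither the reason nor the strand setting of the counting. A further 6 columns matched no listed sample and were not used.

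The 44 members and the other lists were chosen with earlier results of these data known. All members are named; of each further pathway list, the 2 tested genes with the smallest p are named, plus Strit1, except for some genes that are not reported here. Values were rounded to whole numbers (ties upward), filtered with filterByExpr, scaled by TMM and tested in R 4.3.3 with edgeR 4.0.16 (quasi-likelihood, robust, two-sided, Benjamini-Hochberg over 17365 genes, threshold 0.05). A prior check on simulated data recovered 47% of 2-fold and 92% of 4-fold changes at this threshold, with 18 false calls. Differences of 2-fold or less could therefore be missed. DESeq2 1.42.0 and limma 3.58.1 (voom) were alternatives. Ratios are log2 of counts plus 0.5, with exact permutation tests. Levels per kb use the union of annotated exons. Intervals and limits from counts cover counting error only.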

Additional observations from a re-analysis of the deposited data

How the results depend on the processing

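Counts of calls depended on the tool and on control replicate 3. Against 0 by edgeR, the genes past the threshold numbered 644 with DESeq2, 38 with no filter, 82 at an adjusted p under 0.1 and 119 without control replicate 3 and Treg replicate 3 together. Leaving out 1 library gave 0 to 230, the highest without control replicate 3. The members past the threshold numbered 8, 1, 2 and 1 in the same settings, and 0 to 1 with 1 library left out. Members whose groups did not overlap numbered 23 with both libraries left out, 53.5% against 48.5% of all genes, and 13 to 23 with 1 left out, 30.2% to 53.5% against 30.9% to 43.2% of all genes. Casq2 over Ryr2 ranged from −0.515 to 0.002, above 0 without control replicate 3; no other ratio changed sign.

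Of 774 member fold changes over 18 settings, 722 kept their sign and side of the threshold, 11 passed the threshold and 41 changed sign, the last in 14 members. With limma-voom the reversed values were Cacna2d1 0.032, Itpr3 0.028 and Orai1 0.003, with upper-quartile scaling Orai1 0.002, and with no filter Cacna2d1 0.019, Orai1 0.020 and Ppp3ca 0.003. With both libraries left out they were Jph2 −0.067, Tmem38a −0.061, Cacna1d 0.041, Slc8b1 −0.004, Atp2b4 0.001, Itpr3 0.243, Camk2d −0.014 and Ppp3ca 0.107. With 1 or both of these libraries, or any other single library, left out, the members that changed sign ranged as follows: Ryr2 −0.453 to 0.074, Casq1 −0.884 to 0.463, Jph2 −0.097 to 0.153, Tmem38a −0.127 to 0.123, Cacna1d −0.539 to 0.165, Cacna1h −0.400 to 0.121, Cacna2d1 −0.199 to 0.144, Atp2b4 −0.199 to 0.046, Itpr3 −0.229 to 0.313, Stim1 −0.144 to 0.212, Orai1 −0.064 to 0.105 Ppp3ca −0.137 to 0.136, Slc8b1 −0.004 to 0.214 and Camk2d −0.014 to 0.236. The cause was not tested.

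Same-numbered libraries did not deviate together (correlations of −0.142, −0.236 and 0.042), so the numbers were not taken to pair them. With the replicate number as a block, 0 genes and 0 members passed, 13 members had an unadjusted p under 0.05, the median was 0.035, the ratio differences were the same, and Cacna2d1 (0.031), Itpr3 (0.024) and Orai1 (0.001) changed sign. The joint omission, the restriction to protein-coding genes and rounding ties to even were chosen after seeing the data. With 3 libraries a group, an exact test of a ratio cannot go below p = 0.1, and members under about 100 counts, such as Fkbp1b and Cacna1h, carry the most counting error.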
